A study of Mus musculus with 6 samples.

Results

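The 7 genes described here serve antigen presentation by major histocompatibility complex (MHC) class II: H2-Aa, H2-Ab1, H2-Eb1, Cd74, Ciita, H2-DMa and H2-DMb1. They were chosen by name, and all 7 were among the 18429 genes of the count matrix. They were followed across 6 samples of mouse bone marrow-derived macrophages, which were grown from marrow in medium conditioned by L929 cells and sorted singly into wells. Counts are of unique molecular identifiers (UMIs), the tags by which MARS-seq counts single RNA molecules at their 3′ ends. Every group, wild-type included, carried creERT2/creERT2 at the rosa26 locus and received 200 nM of 4-hydroxy-tamoxifen after 96 h of culture. In the Rad21-/- groups this drug removed floxed alleles of Rad21, which encodes a subunit of cohesin. On day 7 the cells of each genotype were left untreated or were given LPS, a bacterial cell wall component, at 10 ng/ml for 2 or 8 h. Each combination of genotype and time is 1 sample, so no test was possible, and all intervals are exact 95% intervals that cover counting error only.

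Class II molecules display peptides from ingested material to CD4 T cells. An alpha and a beta chain pair in the endoplasmic reticulum around the invariant chain, which Cd74 encodes, and the H2-DM pair later exchanges the remnant of the invariant chain for peptide. Ciita encodes the transactivator that switches these genes on together. It is itself induced by interferon-gamma in macrophages and is constitutively active in dendritic and B cells. The transactivator does not bind DNA but docks on proteins assembled at X and Y boxes upstream of class II genes.

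The samples held up to 270 cells each, 1362 in all, and 1417409 to 2195921 UMIs, with a median of 5577 to 7055.5 UMIs per cell. Whether the 17 wells over 25000 UMIs, of up to 496955, held 1 cell each was not tested. They were spread over all samples and held 45.5% of the UMIs of wild-type cells at 2 h but 1.71% of those of untreated wild-type cells. Of the class II UMIs they held 520 of 859 in wild-type cells at 2 h and 231 of 512 in Rad21-/- cells at 8 h. Within a pool, 0 well barcodes were shared by the 2 genotypes. Levels are given as CPM, the UMIs of a gene per 1000000 UMIs of its sample. Rad21 stood at 32.7 to 65.6 CPM in wild-type samples and at 5.49 to 9.88 in Rad21-/- samples. Macrophage markers were plain, since the 8 genes of that list summed to 6043 to 9470 CPM in every sample. The 4 dendritic cell genes analysed summed to 34.4 to 49.6 and the 4 B cell genes to 44.7 to 74.1 in wild-type and 187 to 208 in Rad21-/- samples, where Ighm made up most. Cd79a, Xcr1 and Clec9a, which define B cells or dendritic cells, were not analysed here.

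Class II RNA was rare and uneven. Of all 1362 wells, 794 (58.3%) held 0 UMIs of the 7 genes, 494 held 1 to 3, 40 held 4 to 9 and 34 held 10 or more. Those 34 wells held 2535 of the 3464 class II UMIs, or 73.2%. A typical well therefore held 0 or few class II UMIs, while a small number of wells held many more. A count of 0 does not show that a cell lacked the RNA. Rad21, at 63.9 CPM in untreated wild-type cells, was found in 25.9% of them. Counts also follow depth: 6 of the 34 wells held 117216 to 496955 UMIs in all, of which class II RNA made up 0.0152% to 0.136%. In the other 28 wells it made up 0.133% to 4.38%. The share of wells at 0 lay between 51.8% in Rad21-/- cells at 8 h and 64.4% in untreated wild-type cells. In untreated wild-type cells 78 wells held 1 to 3 UMIs, 5 held 4 to 9, and the 2 highest held 101 and 27.

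**Figure D1:**
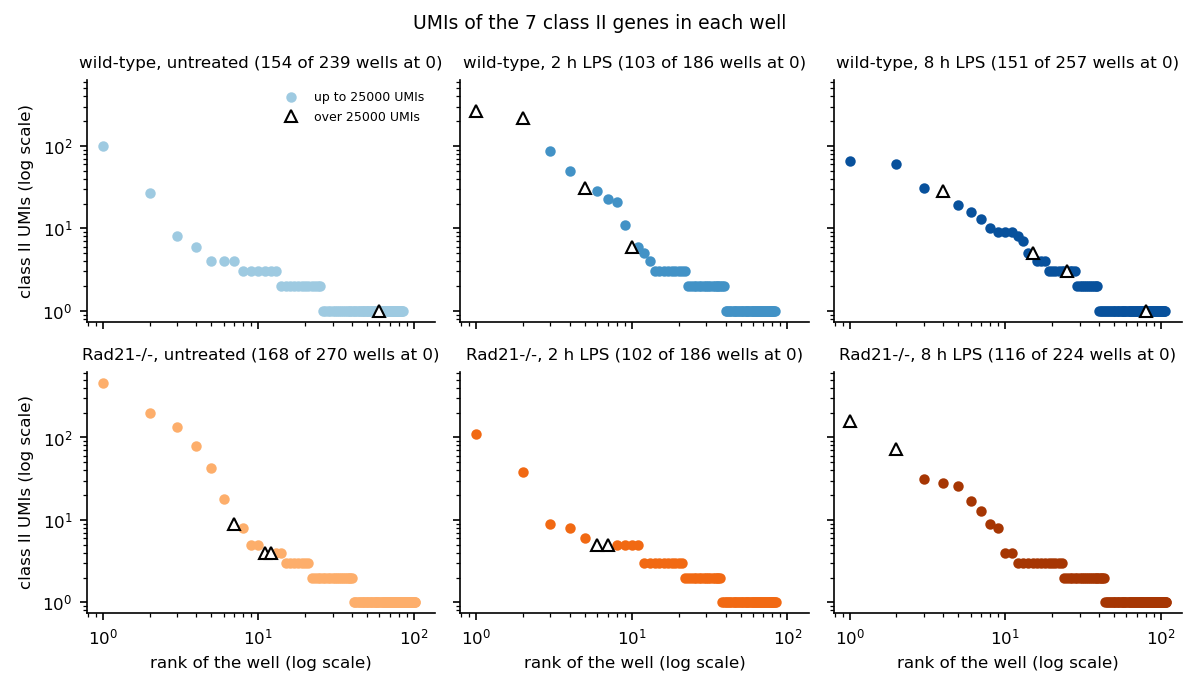
UMIs of the 7 class II genes in each well (y axis, log scale) against the rank of the well within its sample (x axis, log scale), for wells with at least 1 class II UMI. Circles are wells of up to 25000 UMIs and triangles are deeper wells. In each sample the count falls from 65 or more in the first well to 1 in the bulk, and the highest circle is the 463 UMIs of an untreated Rad21-/- well.

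Among the members a RefSeq promoter window (GRCm38.p6) was found for H2-Aa, H2-Eb1, H2-DMa and H2-DMb1. The class II transactivator acts on X and Y boxes. The 250 bases upstream of the start are therefore shown for the 3 genes whose windows carry their letters. All lie on chromosome 17, where H2-DMa (chr17:34119693-34139101), H2-DMb1 (chr17:34153191-34160229), H2-Ab1 (chr17:34263227-34269418), H2-Aa (chr17:34282744-34287823) and H2-Eb1 (chr17:34305867-34316674) are neighbours, whereas Ciita lies at chr16:10480014-10531064. Capitals mark CTNGNAAC, taken here as X box letters, and TGATTGG, taken as Y box letters.
H2-Aa, chr17:34287824-34288073, minus strand: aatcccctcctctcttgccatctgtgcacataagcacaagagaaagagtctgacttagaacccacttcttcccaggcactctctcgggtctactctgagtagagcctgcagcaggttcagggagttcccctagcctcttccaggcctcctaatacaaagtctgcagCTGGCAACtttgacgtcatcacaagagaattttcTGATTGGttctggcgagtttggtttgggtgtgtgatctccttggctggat
H2-Eb1, chr17:34305617-34305866, plus strand: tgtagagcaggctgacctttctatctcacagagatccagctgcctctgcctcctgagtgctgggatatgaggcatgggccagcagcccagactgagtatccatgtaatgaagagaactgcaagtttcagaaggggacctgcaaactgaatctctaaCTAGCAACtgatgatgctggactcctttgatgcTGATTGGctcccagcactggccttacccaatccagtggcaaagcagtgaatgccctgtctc
H2-DMb1, chr17:34152941-34153190, plus strand: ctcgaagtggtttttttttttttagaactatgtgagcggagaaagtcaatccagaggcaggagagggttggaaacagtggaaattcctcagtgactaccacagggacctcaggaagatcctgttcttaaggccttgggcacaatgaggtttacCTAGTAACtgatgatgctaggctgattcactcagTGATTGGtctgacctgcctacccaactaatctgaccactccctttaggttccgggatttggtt
The Y box letters began 50, 61 and 63 bases before the start of H2-Aa, H2-Eb1 and H2-DMb1, and the X box letters ended 26, 25 and 26 bases before them. Searched on both strands in all 32851 windows, the Y box letters were in 7.23%, the X box letters in 10.9%, and an X box followed within 40 bases by a Y box on the same strand in 27 windows (0.0822%). Neither motif was in the 2 windows of H2-DMa. These windows, chr17:34122582-34122831 and chr17:34125268-34125517, lie inside the span given above for that gene. Those of the 3 genes shown adjoin the edge of theirs. Whether H2-DMa has these letters at another start was not tested. The X box letters were written with these promoters in view, so that the matches describe the 3 windows and nothing more.

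H2-Aa encodes the alpha chain of I-A. In this order of untreated, 2 h and 8 h, which is kept below, wild-type cells held 35, 164 and 41 of its UMIs and Rad21-/- cells 215, 34 and 40. This is 23.8, 74.7 and 22.4 CPM against 118, 24.0 and 19.1 CPM. Single wells set these sums: 25 of the 35, 101 of the 215 and 18 of the 34 UMIs came from 1 well each, and 2 wells of wild-type cells at 2 h held 58 and 50 of the 164. Cells with at least 1 UMI were 3.35%, 9.14% and 6.23% of wild-type and 7.04%, 6.45% and 5.36% of Rad21-/- cells, and when the 6 shares are put in order of size, neighbours have overlapping intervals.

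H2-Ab1 encodes the beta chain that pairs with H2-Aa. Wild-type cells held 27, 76 and 63 UMIs of it against 119, 25 and 52. Unlike the sums, the share of cells with a UMI was ordered by time in each genotype before thinning: 3.35% (interval 1.46 to 6.49), 10.2% (6.26 to 15.5) and 13.2% (9.34 to 17.99) for wild-type, then 4.44%, 6.99% and 8.48% once Rad21 was deleted. The untreated and 8 h intervals of wild-type cells did not overlap. After thinning of each cell to 3800 UMIs, which leaves out shallower cells, wild-type cells stood at 2.60%, 3.64% and 8.33% and Rad21-/- cells at 2.69%, 2.60% and 5.91%. The thinned intervals of wild-type cells, 0.851 to 5.97 untreated and 5.09 to 12.7 at 8 h, overlapped. The 63 UMIs of wild-type cells at 8 h were spread over 34 cells, of which 23 held 1, and the highest well held 11. H2-Ab1 had too few UMIs to be among the genes compared at 8 h against untreated in wild-type cells. Over the 5601 genes with enough UMIs in this comparison the median change in share was -0.96 percentage points. In Rad21-/- cells the share before thinning rose by 2.54 points at 2 h and 4.04 at 8 h against untreated. The medians over the genes compared there were 2.05 and 5.10.

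H2-Eb1 encodes the beta chain of I-E. Wild-type cells held 26, 94 and 36 UMIs, Rad21-/- cells 164, 31 and 48. It was the most concentrated chain in untreated wild-type cells, where 1 well held 23 of 26 UMIs and 3 other cells held 1 each. Positive cells made up 1.67%, 8.60% and 5.06% against 5.19%, 4.30% and 5.80%, and after thinning 0.521%, 1.82% and 3.95% against 3.14%, 1.30% and 3.45%.

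Cd74, the invariant chain, was in more cells than any other member in each of the 6 samples. Wild-type cells held 120, 440 and 248 of its UMIs and Rad21-/- cells 530, 159 and 302, or 81.6, 200.4 and 135 against 291, 112 and 144.6 CPM. The share of positive cells was 19.2% (14.4 to 24.8), 30.1% (23.6 to 37.2) and 23.7% (18.7 to 29.4) for wild-type, then 24.1%, 28.0% and 27.7% for Rad21-/-. Thinned shares were 10.9%, 19.4% and 18.4% against 17.5%, 18.2% and 17.7%, so that untreated wild-type cells stood below the other 5 samples. Their thinned interval, 6.90 to 16.2, overlapped those of the other 5. Of all 342 positive cells, 62.9% held a single UMI. These data have no cell type that lacks Cd74, so the part of single UMIs that came from free RNA was not tested. Beside the untreated Rad21-/- well with 210 Cd74 UMIs, the highest of all, 17 of the 40 other wells of its pool were positive (42.5%, 27.0 to 59.1), against 19.9% (16.3 to 23.8) of the 468 untreated cells in other pools. Those groups had medians of 6739.5 and 5633.5 UMIs per cell. In the pools of the 4 wells next in class II UMIs the shares were 24.2%, 39.1%, 28.0% and 23.3%, against 30.4%, 25.7%, 20.2% and 25.6% of cells of the same time elsewhere, so that the shares were higher beside the high well in 3 of 5 pools and lower in 2.

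H2-DMa and H2-DMb1 form the peptide exchange factor H2-DM, and neither followed the chains in level over the 6 samples. For H2-DMa the UMIs were 23, 34 and 14 against 21, 13 and 13, with positive shares between 4.91% and 8.37%. For H2-DMb1 they were 24, 49 and 24 against 50, 45 and 51. It was in 9.62%, 11.3% and 8.17% of wild-type cells and in 12.6%, 18.3% and 17.9% of Rad21-/- cells, the latter higher at each time. At 8 h the intervals, 5.13 to 12.2 and 13.1 to 23.5, did not overlap, and at the other times they did. The differences were 2.97, 6.99 and 9.69 percentage points, or 3.54, 6.10 and 2.67 after thinning. Over the genes with enough UMIs the medians were 0.07, -0.54 and 6.89, or -0.34, 0.13 and 1.97 after thinning. H2-DMb1 itself had too few UMIs to be among those genes. Thinned shares were 6.77%, 3.64% and 5.70% against 10.3%, 9.74% and 8.37%, and their intervals overlapped at each time, at 8 h with 3.07 to 9.55 against 4.95 to 13.1. Its highest well held 10 UMIs, in the deepest well of all. The authors counted only reads that mapped to 1 place, and the near copy H2-DMb2 was not analysed here.

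Ciita, the transactivator, was almost undetected, with 14 UMIs in 9 of 1362 cells. Wild-type cells held 1, 2 and 0 UMIs and Rad21-/- cells 3, 2 and 6, and the 0 of 257 wild-type cells at 8 h allows up to 1.17% (3 counts) to carry a UMI, which does not limit the share of cells expressing the gene under detection. No fold is given, since most samples were at or under 3 counts. Of the 9 positive wells, 7 also held 10 or more UMIs of the other 6 members, as did 27 of the 1353 wells without Ciita (2.00%). Among wells of at most 25000 UMIs these were 4 of 6 against 24 of 1339.

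**Figure D2:**
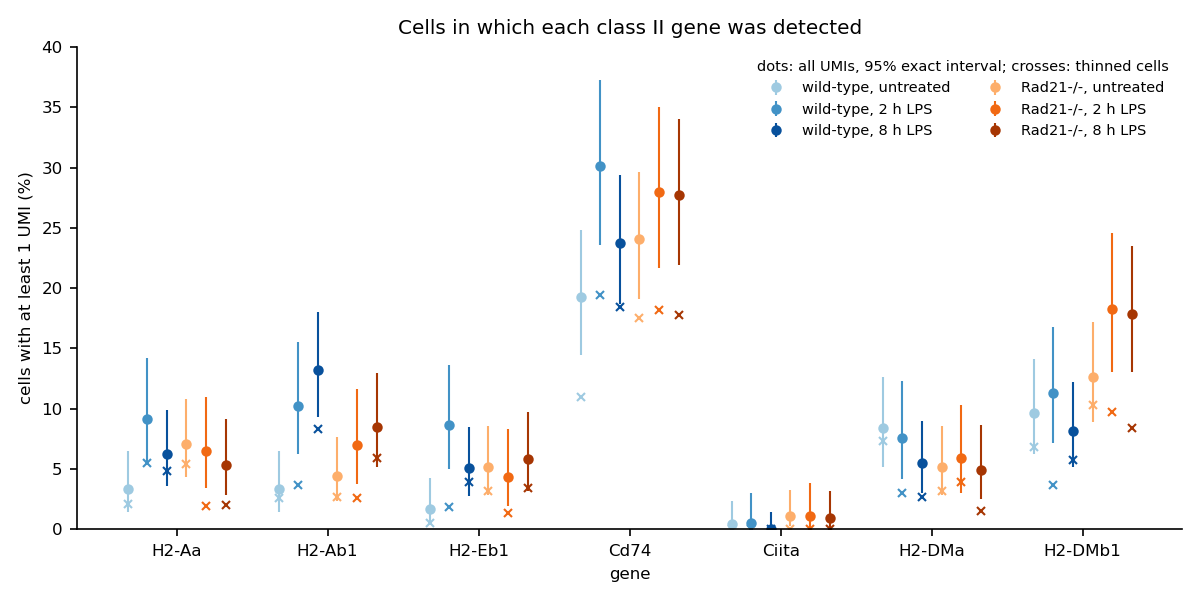
Share of cells with at least 1 UMI (y axis, %) of each class II gene in the 6 samples, with exact 95% intervals that cover counting error only. Crosses are shares in cells thinned to 3800 UMIs. Cd74 lies between 19.2% and 30.1%, Ciita between 0 and 1.11%, and H2-DMb1 is higher in Rad21-/- than in wild-type cells at each time. At 8 h the median change in share over the genes compared was 6.89 percentage points in the same direction.

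In the highest wells the chains came together. Of the 28 wells with 10 or more class II UMIs and at most 25000 UMIs in all, 18 held all of H2-Aa, H2-Ab1 and H2-Eb1, 6 held 2 of the 3, and all 28 held Cd74. H2-DMb1 was in 13 and H2-DMa in 11 of them. Class II RNA was 0.133% to 4.38% of a well's UMIs, with a median of 0.516%, and Cd74 alone made up 52.8% of the class II UMIs.

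In 9 wells class II RNA reached 1% of all UMIs, a cut chosen after the values were seen. They were 1 of 239 untreated wild-type wells (0.418%, 0.0106 to 2.31), 1 well each of wild-type at 2 and 8 h, and 4 of 270 untreated (1.48%, 0.405 to 3.75), 2 (1.08%) at 2 h and 0 of 224 at 8 h Rad21-/- wells, the last of which allows a share of up to 1.34%. These intervals overlapped throughout. All 9 held every chain and Cd74, 4 held Ciita, and they came from 8 pools. The first of them, an untreated Rad21-/- well of 14062 UMIs, held 101 H2-Aa, 60 H2-Ab1, 80 H2-Eb1, 210 Cd74, 7 H2-DMa, 5 H2-DMb1 and 0 Ciita UMIs. The highest by share, also untreated Rad21-/-, held 135 class II UMIs among 3082, of which 65 were Cd74.

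Other markers were read in these 9 wells. Lyz2, a macrophage lysozyme, was in all 9, with 2 to 165 UMIs, Csf1r in 7 and Adgre1 in 6. Summed over the 9 wells, Lyz2 stood at 7387 CPM against 4228 in the other wells of at most 25000 UMIs, and 165 of its 321 UMIs there came from 1 well. Of the other 7 macrophage genes, Csf1r (391 against 329 CPM) and Itgam (322 against 254) were higher, and Cd68 (920.5 against 1395), Cd14 (529 against 999), Adgre1 (138.1 against 303), Fcgr1 (115.1 against 215) and Mertk (0 against 14.1) were lower. The dendritic cell genes Flt3, Zbtb46, Itgax and Dpp4 had 1 UMI each, or 23.0 CPM against 3.87, 23.4, 1.48 and 10.5 in the other wells, and the B cell genes Ms4a1, Pax5 and Ebf1 had 0. Ighm, the mu heavy chain, had 1 UMI in 7 of the 9 wells (77.8%) against 28.7% positive in the others, and 6 of the 9 were Rad21-/-. Whether other cell types had a part in these wells was not tested.

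**Figure D3:**
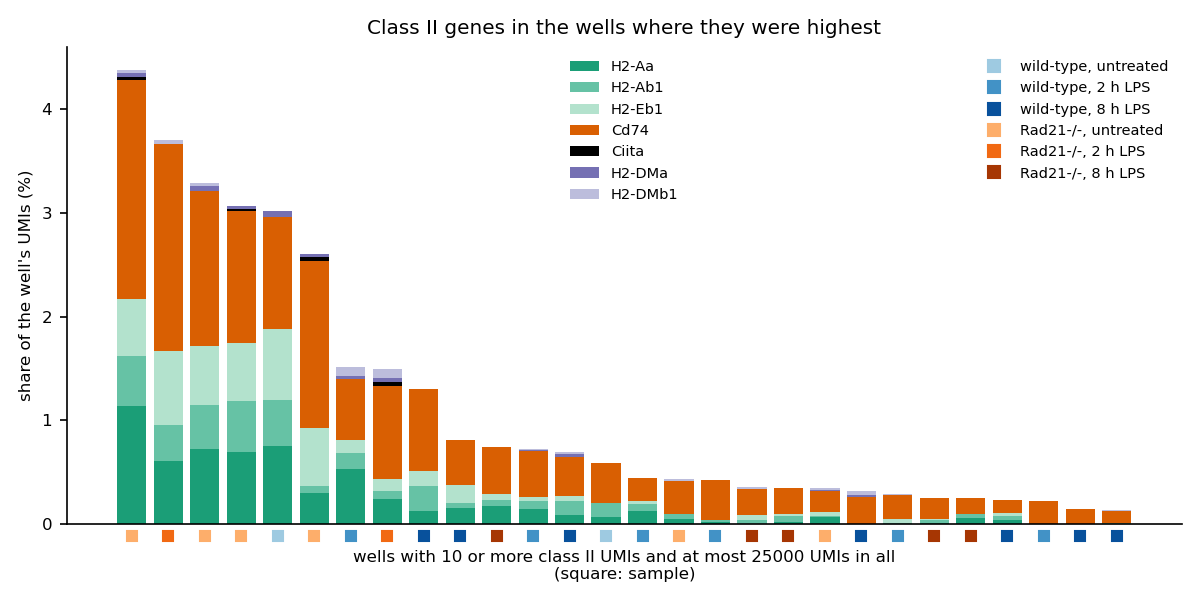
Make-up of the 28 wells with 10 or more class II UMIs and at most 25000 UMIs in all, as the share of the well's UMIs (y axis, %) from each class II gene, ordered by the total. Squares give the sample. The 9 wells above 1% hold all 3 chains and Cd74, and wells further right are mostly Cd74.

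The members differed in evenness, high wells included. In thinned cells the variance of a count over its mean, which is 1 for counting error alone, was 37.0 for Cd74, 22.6 for H2-Aa, 21.7 for H2-Eb1 and 14.0 for H2-Ab1 in untreated Rad21-/- cells. Among 13921 genes whose thinned mean reached 0.02 there, 3 exceeded Cd74, and the median was 1.02. H2-DMa and H2-DMb1 stood at 0.97 and 0.98. Such a ratio can grow with the mean, which was 0.758 for Cd74 and 0.166 to 0.291 for the chains. The ratio less 1, divided by the mean, put Cd74 lowest of the 4. It was 87.21 for H2-Eb1, 78.22 for H2-Ab1, 73.98 for H2-Aa and 47.49 for Cd74. In wild-type cells at 8 h the variance over the mean was 12.3 for Cd74, 3.23 for H2-Ab1 and 1.09 for H2-DMb1. Divided by the mean in the same way, Cd74 stood at 19.51 and H2-Ab1 at 15.43 there. Thinning left out 6 of the 9 wells above 1%, which were shallower than 3800 UMIs, but kept 2 of the 4 of untreated Rad21-/- cells and the 1 of wild-type cells at 8 h. In Rad21-/- cells at 2 h, where it left out both, Cd74 stood at 1.06. Thinning also left out the 1 such well of untreated wild-type cells and that of wild-type cells at 2 h. Cd74 still stood at 6.66 and 8.48 there, and at 4.9 in Rad21-/- cells at 8 h, which had 0 such wells.

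Detection of the members overlapped. Over all cells, 188 held at least 1 of the 3 chains, 146 of them a single chain, 15 a pair and 27 all 3. Cd74 was found in 48.4% of these 188 cells and in 21.4% of cells with no chain. H2-DMb1 was in 20.2% and 11.5%, and H2-DMa in 14.4% and 4.86%, of the same groups. Deeper cells are likelier to hold both genes of any pair, and these shares are not corrected for depth. Over thinned cells (at most 228 per sample) Spearman's rho of H2-Aa with H2-Ab1 lay between 0.25 and 0.44, and that of H2-Aa with Cd74 between 0.15 and 0.30. Other pairs were less even over the samples, with H2-Aa and H2-Eb1 between -0.01 and 0.60, H2-Ab1 and H2-Eb1 between -0.01 and 0.71, H2-Ab1 and Cd74 between 0.03 and 0.29, and H2-Eb1 and Cd74 between -0.03 and 0.33. The pair H2-DMa and H2-DMb1 lay between -0.07 and 0.32. With the 3 chains H2-DMa lay between -0.05 and 0.29 and H2-DMb1 between -0.08 and 0.25, each highest in untreated Rad21-/- cells. These points share the library and rest on few positive cells.

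The summed level of the 7 genes was 174 CPM (153.4 to 197) in untreated wild-type cells, 391 (365 to 418) at 2 h and 232 (211 to 255) at 8 h. In Rad21-/- cells it was 605 (570 to 642) untreated, 218 (194 to 244) at 2 h and 245 (224 to 267) at 8 h. Ordered, untreated Rad21-/- cells were highest, wild-type cells at 2 h next, and the other 4 followed, of which neighbours had overlapping counting intervals. With the 4 highest wells of untreated Rad21-/- cells left out one after another, the sum there went from 605 to 354, 244, 169.1 and 125, while untreated wild-type cells went from 174 to 105.7, 87.5, 82.5 and 78.7. For wild-type cells at 2 h the sum without the 2 highest wells, of 496955 and 203708 UMIs, was 251.

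Genes were compared by CPM with 1 UMI added to each sample, where the pair of samples held at least 100 UMIs of the gene, and a 2-fold ratio (1 on the log2 scale) was the size taken as past. In wild-type cells at 2 h against untreated, 3 of 4 members with enough UMIs were past it, all higher: H2-Aa (log2 ratio 1.62), Cd74 (1.29) and H2-Eb1 (1.24), where 6.42% of 6915 genes were past it either way. Without the wells over 25000 UMIs these ratios were 0.86, 0.99 and 0.10, below 2-fold. The summed level had a log2 ratio of 1.17, and 0.68 without those wells. Leaving out the 24 wild-type cells at 2 h, and the 27 untreated, with UMIs of 2 or more dendritic or B cell genes gave -0.020. Those at 2 h held 75.7% of the class II UMIs of their sample and those untreated 3.12%. Deeper wells were likelier to be among them: their median was 8630.5 UMIs against 5653 in the other cells at 2 h, and 4 of the 5 deep wells were left out with them and held 520 of their 650 class II UMIs. Cells positive for Cd74 were 10.9 percentage points more, or 8.46 after thinning, against medians of 2.44 and -0.55 over all genes compared. The intervals of the Cd74 shares overlapped before and after thinning.

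At 8 h against untreated in wild-type cells, 0 members were past 2-fold among the single member with enough UMIs, Cd74 (0.72), beside 21.2% of 5601 genes. At 8 h against 2 h, H2-Aa (-1.71) and H2-Eb1 (-1.10) were past it and lower, 2 of 4 members, beside 19.9% of 6988 genes. Without the deep wells H2-Aa stood at -0.88 and H2-Eb1 at 0.21, so the latter changed direction.

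In Rad21-/- cells at 2 h against untreated, all 4 members with enough UMIs were past 2-fold and lower: H2-Aa (-2.26), H2-Eb1 (-2.00), H2-Ab1 (-1.84) and Cd74 (-1.37), where 3.96% of 5609 genes were past it. At 8 h against untreated the same 4 were lower, H2-Aa by -2.59, H2-Eb1 by -1.95, H2-Ab1 by -1.38 and Cd74 by -1.01, while H2-DMb1 was at -0.17, and 12% of 6706 genes were past it. Both comparisons share the untreated sample with its 4 wells above 1%. Without the 5 highest wells of each sample the summed log2 ratio went from -1.47 to -0.022 at 2 h and from -1.30 to 0.17 at 8 h. Without cells with 2 or more dendritic or B cell genes, which held 71.3% of the class II UMIs of untreated Rad21-/- cells (2.16% of that in deep wells), it was 0.23 at 2 h and -1.04 at 8 h. Ighm, 1 of these genes, was in 52.2% of untreated Rad21-/- and 17.2% of untreated wild-type cells. Of the same groups 22.6% and 11.3% of cells were left out. The well of 463 class II UMIs was among them, with 1 UMI each of Itgax and Ighm. Whether the cells left out were dendritic or B cells was not tested. At 8 h against 2 h, 0 members were past 2-fold, with Cd74, the only one with enough UMIs, at 0.36, beside 9.46% of 6111 genes.

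Between genotypes in untreated cells, 4 of 4 members with enough UMIs were higher in Rad21-/- cells: H2-Eb1 (2.30), H2-Aa (2.28), Cd74 (1.82) and H2-Ab1 (1.79), beside 4.51% of 5804 genes. The summed log2 ratio was 1.80. It was 0.41 without the 5 highest wells of each sample and 0.39 without cells with 2 or more dendritic or B cell genes. The shares of positive cells were 1.10 to 4.83 percentage points higher for these 4 genes, and their counting intervals overlapped. At 2 h, H2-Aa was past 2-fold and lower in Rad21-/- cells (-1.61), 1 of 4 members, beside 7.08% of 6720 genes, and without the deep wells it stood at -0.69. At 8 h, 0 of 2 were past it, with Cd74 at 0.10 and H2-Ab1 at -0.46, beside 10.5% of 6354 genes. The summed log2 ratio at 8 h was 0.08, and -0.63 without the deep wells, which held 45.1% of the class II UMIs of Rad21-/- cells at that time.

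**Figure D4:**
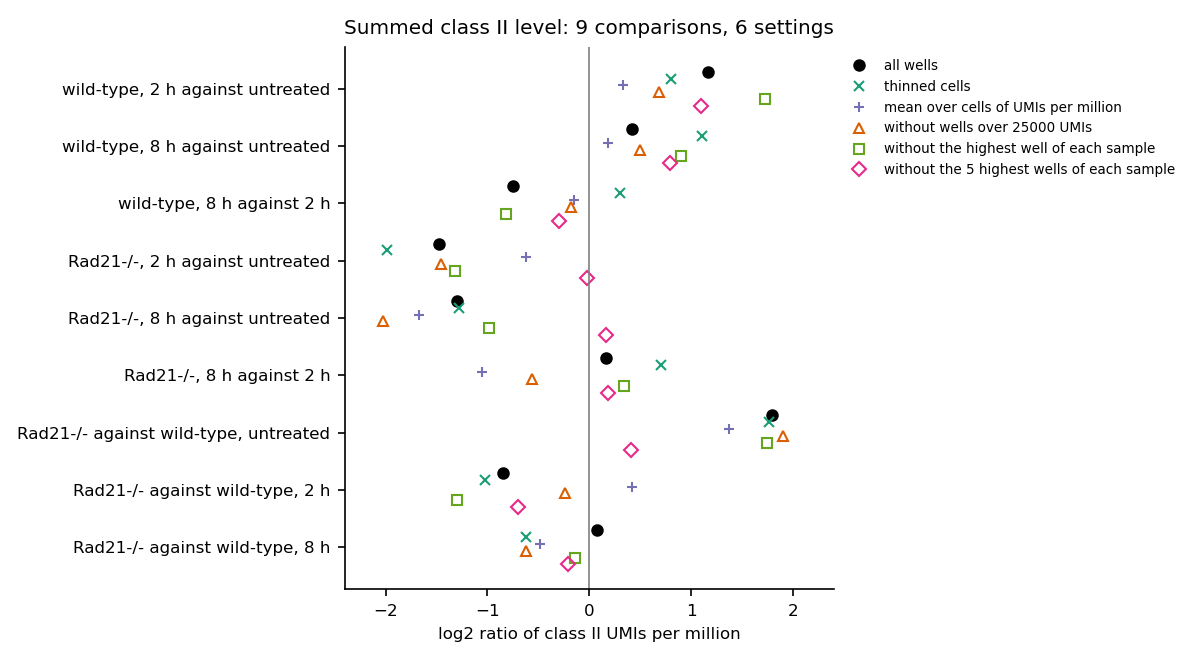
Log2 ratio of the summed class II CPM (x axis) in the 9 comparisons (y axis), from all wells and under 5 other settings. In untreated cells, Rad21-/- against wild-type is above 1 in each plotted setting but the one without the 5 highest wells of each sample, where it is 0.41.

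Library pools mixed the genotypes, and 18 of the 24 had 10 or more cells of both. H2-DMb1 was in a larger share of Rad21-/- than of wild-type cells in 13 of the 18, in 5 of 8 untreated, 3 of 4 at 2 h and 5 of 6 at 8 h. The difference ranged from -9.41 to 25.4 percentage points with a median of 9.14. Over whole samples at 8 h, shares were also higher in Rad21-/- cells by a median of 6.89 points among 6354 genes. H2-Ab1 went the other way at 8 h, with a smaller share in Rad21-/- cells in 5 of 6 pools and a median difference of -8.22. Cd74 was higher in 11 and lower in 7 of the 18, and the summed log2 ratio was above 0 in 8 of them, with a range of -3.16 to 4.31. In untreated cells alone the sum was higher in Rad21-/- cells in 5 of 8 pools. Without the pool that held the highest well, the untreated log2 ratio was 1.07.

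**Figure D5:**
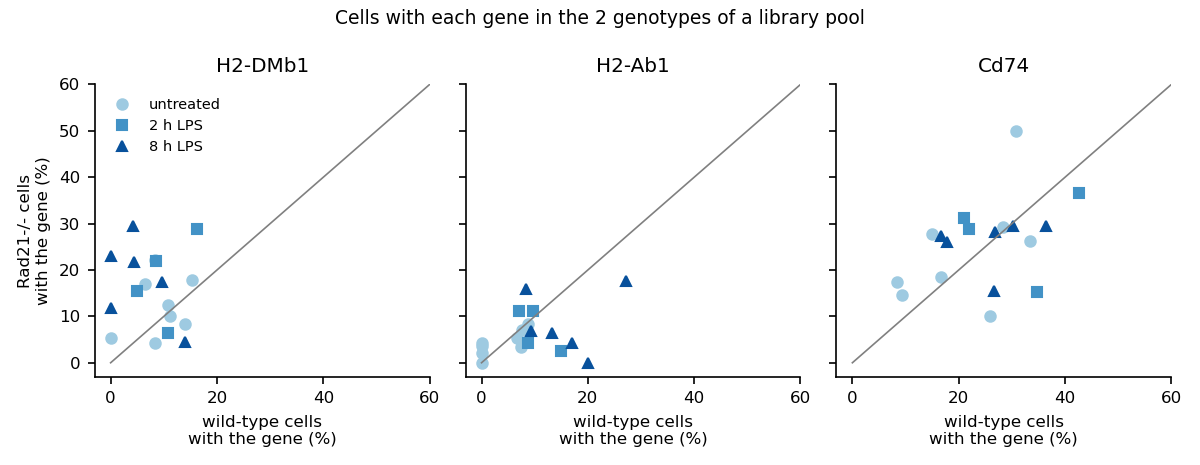
Share of Rad21-/- cells (y axis, %) against share of wild-type cells (x axis, %) with at least 1 UMI of H2-DMb1, H2-Ab1 or Cd74, 1 point for each of those 18 library pools. The line marks equal shares. For H2-DMb1, 13 of 18 points lie above it.

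The other genes of the pathway were followed from fixed lists. H2-Oa, H2-Ob and H2-Eb2 were not analysed here. The 10 regulators include the RFX and NF-Y subunits that assemble at the X and Y boxes. Few of them had enough UMIs. Against untreated, Nfya was past 2-fold in wild-type cells at 2 h (log2 ratio 1.14, from 27 to 91 UMIs, and 0.62 without the deep wells), beside 6.42% of genes. Spi1, the macrophage factor PU.1, was past 2-fold in Rad21-/- cells at 8 h (1.04), beside 12% of genes. No other comparison put a regulator past 2-fold. Rfx5 stood at 2.72 to 4.94 CPM.

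Of the 6 genes listed for the interferon-gamma pathway, which leads to Ciita, several were past 2-fold. Against untreated Jak1 was not, with log2 ratios of 0.23 to 0.72. Ifng itself was not analysed here, and whether interferon-gamma acted on these cells was not tested. Irf1, an interferon-induced transcription factor, stood at 27.9, 402 and 183 CPM in wild-type and 23.6, 412 and 101 with Rad21 deleted. Jak2, a receptor kinase, stood at 14.96, 62.4 and 164 against 10.98, 41.6 and 72.3. At 8 h against untreated Irf1, Jak2 and the receptor chain Ifngr2 (log2 ratios 1.37 in wild-type and 1.45 in Rad21-/- cells) were higher and the other chain, Ifngr1 (-1.19 and -1.20), was lower, past 2-fold in each genotype, beside 21.2% and 12% of all genes compared. At 2 h against untreated Ifngr1 was higher in wild-type cells (1.30, and 1.06 without the deep wells) beside 6.42% of genes, and stood at 0.63 in Rad21-/- cells. Between genotypes at 2 h it was lower in Rad21-/- cells (-1.40), beside 7.08% of genes. Ciita remained at 0 to 6 UMIs throughout.

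Among the 6 genes of antigen processing, Ctss, the cathepsin that trims the invariant chain, was lower in Rad21-/- cells at each time. It stood at 2070, 1956 and 1711 CPM in wild-type against 1052, 1219 and 847 in Rad21-/- cells, past 2-fold at 8 h (-1.01), beside 10.5% of genes. Ctsd was higher in Rad21-/- cells, past 2-fold at 2 h (1.14, and 0.90 without the deep wells) and 8 h (1.01). The shares of all genes past it were 7.08% and 10.5%. In wild-type cells at 8 h against untreated, Ctsd (-1.37) and Ifi30 (-1.15), a thiol reductase of the endocytic path, were lower, beside 21.2% of genes past 2-fold. March1, a ubiquitin ligase that removes class II from the surface, stood at 63.9, 81.97 and 117 against 56.5, 67.0 and 63.2, and neither it nor March8 was past 2-fold in any comparison.

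Likeness between cells was ranked in untreated wild-type cells alone, where thinning left out the well with 101 class II UMIs. Over the 192 thinned cells the 10 highest of 6077 genes had Spearman's rho of 0.23 to 0.35 with the summed UMIs, led by Rpsa, Araf and Arap1. In the other 5 samples the same genes lay between -0.18 and 0.19. Over the 6 samples the level of Cndp2, Zzef1, Arhgap15, Rad51b and Strbp was the most like the class II sum among 4055 genes (Pearson's r of 0.85 to 0.92 on log2 values), with Cndp2 ranging from 180.5 to 209 CPM. These are descriptions over few points that share depth and library.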

How the data were processed

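UMI counts per gene and cell were analysed as deposited. The authors sorted single macrophages into plates, made MARS-seq libraries in pools, mapped reads (mouse build GRCm38.p4, named in the submitters' processing notes), dropped wells by spike-in, mapped and total reads, kept unambiguous reads and collapsed UMIs, with no normalization of the counts. They state a filter on genes found in few cells, while Ciita, found in 0.661% of cells, is in the matrix. Of the cell columns, 0 could not be matched to a sample, and 1 gene name stood on more than 1 line.

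Levels are summed UMIs of a gene per 1000000 UMIs of the sample (CPM). Sums carry exact Poisson and shares exact Clopper-Pearson intervals, and a 0 is given with the limit of 3 counts. Thinning drew UMIs without replacement to 3800, the largest multiple of 100 that keeps 80% of cells of every sample. No doublet caller was run, since cells were sorted singly, and whether the deepest wells held several cells was not tested. The 7 members were taken by name. Named beside them were fixed pathway and marker lists, the 10 genes most like the sum over cells and the 5 over samples. Members and lists were chosen with earlier results of these data known. Python 3.11.15, numpy 2.4.6, pandas 2.3.3, scipy 1.17.1 and matplotlib 3.10.9 were used, and the steps were tested on simulated data. Values of 1 listed pathway gene are not reported here.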

Additional observations from a re-analysis of the deposited data

Results flagged for a closer look

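For the summed class II level and the members listed here, the ratios to untreated cells lay on opposite sides of 0 in the 2 genotypes, counting intervals included. At 2 h against untreated the log2 ratio of the summed CPM was 1.17 in wild-type and -1.47 in Rad21-/- cells. It was 1.62 and -2.26 for H2-Aa, 0.88 and -1.84 for H2-Ab1, 1.24 and -2.00 for H2-Eb1, and 1.29 and -1.37 for Cd74. At 8 h the sum stood at 0.42 and -1.30, H2-Ab1 at 0.87 and -1.38, and Cd74 at 0.72 and -1.01. At 8 h H2-Aa was lower in both (-0.10 and -2.59), and H2-Eb1 stood at 0.14 in wild-type cells with an interval across 0. With 1 sample per group the difference between the genotypes was not tested. Without the 5 highest wells of each sample the sum was 1.09 in wild-type and -0.022 in Rad21-/- cells at 2 h, and 0.79 and 0.17 at 8 h. Without cells with 2 or more dendritic or B cell genes the sums at 2 h were -0.020 and 0.23.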

How the results depend on the processing

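The log2 ratios of the summed class II level turned on few wells. As reported they were 1.17, 0.42, -0.75, -1.47, -1.30, 0.17, 1.80, -0.84 and 0.08. Values follow the order wild-type at 2 h against untreated, 8 h against untreated and 8 h against 2 h, the same 3 for Rad21-/- cells, then Rad21-/- against wild-type untreated, at 2 h and at 8 h, and those within counting error of the reported value are left out. Mean levels over cells gave 0.33, 0.18, -0.15, -0.62, -1.68, -1.05, 1.37, 0.42 and -0.48. Thinned cells gave 0.80, 1.11 and 0.30 in wild-type, -1.98 and 0.70 in Rad21-/- cells for 2 h against untreated and 8 h against 2 h, and -0.62 between genotypes at 8 h. Without wells over 25000 UMIs the values were 0.68 and -0.18 in wild-type for 2 h against untreated and 8 h against 2 h, -2.02 and -0.56 in Rad21-/- cells for 8 h against untreated and against 2 h, and -0.24 and -0.63 between genotypes at 2 and 8 h. UMIs per cell without scaling gave, for the same 6, 2.11, -1.48, -0.84, 0.46, -1.48 and 0.46. Without cells with UMIs of at least 2 dendritic or B cell genes, which removed 75.7% of class II UMIs of wild-type cells at 2 h and 71.3% of those of untreated Rad21-/- cells, the values were -0.020, 0.43 (8 h against 2 h), 0.23, -1.04, -1.26, 0.39, 0.64 and -1.06, so that 6 of the 9 changed sign. Ighm was 1 of those genes, and 22.6% of untreated Rad21-/- but 11.3% of untreated wild-type cells were left out. Without Cd74 the values were 0.070 and -0.98 in wild-type for 8 h against untreated and against 2 h, and -1.64 and -0.074 in Rad21-/- cells. Leaving out each pool in turn gave 0.86 to 1.90, 0.13 to 1.15, -0.95 to -0.44, -2.08 to -0.78, -1.75 to -0.61, -0.27 to 0.78, 1.07 to 2.63, -1.52 to -0.35 and -0.36 to 0.34.

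Some settings were chosen after the data were seen. Without the highest well of each sample the ratios were 1.72 and 0.90 in wild-type at 2 and 8 h against untreated, -0.98 in Rad21-/- cells at 8 h against untreated, and -1.30 and -0.14 between genotypes at 2 and 8 h. Without the 5 highest they were 0.79 and -0.30 in wild-type at 8 h against untreated and 2 h, -0.022 and 0.17 in Rad21-/- cells at 2 and 8 h against untreated, and 0.41 and -0.21 between genotypes untreated and at 8 h.

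Single members that were past 2-fold changed sign as follows. Without the 5 highest wells, Rad21-/- cells at 8 h against untreated gave 0.98 for H2-Ab1, 0.20 for H2-Eb1 and 0.20 for Cd74, and at 2 h 0.52 for H2-Ab1. In wild-type cells at 8 h against 2 h, H2-Aa was 0.057 in thinned cells, and H2-Eb1 was 1.31 thinned, 0.13 as the mean over cells, 0.21 without deep wells and 0.97 without the cells with other markers. Those cells left out, wild-type at 2 h against untreated gave -0.83 for H2-Eb1 (-0.63 as the mean over cells), Rad21-/- cells at 2 h against untreated gave 0.072 for H2-Eb1 and 0.40 for Cd74, and H2-Aa between genotypes at 2 h was 0.17. Scaling to genes outside the 100 most abundant, 0.5 UMI added and dropping wells under 500 UMIs moved 0 values beyond counting error, and 0 wells were under 500 UMIs. Shares moved beyond counting error in 24 of 42 cases after thinning and in 39 of 42 when 2 UMIs were required. No paired analysis was possible because each group is 1 sample. At these depths the intervals of the share of Ciita-positive cells overlapped among all 6 samples.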
